A study of Homo sapiens and Mus musculus with 19 samples.

Results

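Small nucleolar RNA (snoRNA) host genes were taken as all genes with an SNHG symbol and a number, together with GAS5, DANCR, ZFAS1 and EPB41L4A-AS1, or Gas5, Dancr, Zfas1 and Epb41l4aos in the mouse, that had at least 1 read in the libraries used. The rule gave 18 of the 54446 mouse genes and 29 of the 58721 human genes. It used names and the presence of a read, not levels or changes, but the set was chosen with earlier results of these data known. The libraries measured chromatin-associated RNA (caRNA), the RNA left in the chromatin pellet after cytoplasm and nucleoplasm were removed, so unspliced host transcripts were sequenced together with spliced ones, and whether reads in introns were counted is not given in the sources used here. Mouse embryonic stem cells (mESC) were transfected with a control siRNA (siControl, 3 libraries) or with siRNA against Nsun2, an RNA cytosine methyltransferase (siNsun2, 3 libraries), and had been passaged off feeder cells and kept in serum with LIF, CHIR99021 and PD0325901. K562, an established human leukaemia cell line, was used as TET2 wild type (TET2WT) or TET2 knockout (TET2KO), and each line carried either shControl, a control shRNA, or shMBD6, which targets the methyl-binding-domain protein MBD6. Each of the 4 groups had 3 libraries, and all were grown with puromycin. TET2 oxidizes methylcytosine, and the design compares its loss, MBD6 depletion and Nsun2 depletion.

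All K562 shRNA lines were made by lentiviral transduction, the sources used here do not say whether the TET2KO line is 1 clone, and differences between the lines other than TET2 cannot be told apart from the genotype. The study's methods name 1 MBD6 hairpin for the K562 lines. Other effects of that hairpin, and other differences between the transduced lines, cannot be told apart from MBD6 depletion. The study calls its replicates biological. Neither the labels nor the methods say how the 3 libraries of a group were separated, so every p-value measures the spread between these libraries, whatever its source. In bulk RNA, fewer cells of a type and less RNA per cell cannot be told apart.

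In vertebrates most snoRNAs are cut from introns of longer host transcripts. Box C/D snoRNAs guide ribose methylation by fibrillarin and box H/ACA snoRNAs guide pseudouridylation by dyskerin, mostly on ribosomal RNA. The noncoding hosts keep little else: their spliced exons are in many cases short-lived and removed by nonsense-mediated decay, and several of them begin with a pyrimidine tract like that of ribosomal protein genes.

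Libraries held 58078323 to 66832780 gene counts in mESC and 52158403 to 102070220 in K562. Nsun2 was at 133, 126 and 130 CPM (counts scaled to library size, here after TMM scaling) in siControl and at 98.8, 106 and 103 CPM in siNsun2, a log2 change of -0.34 ± 0.03 (SE, n = 3 against 3, edgeR quasi-likelihood test, Benjamini-Hochberg adjusted p = 2.78e-16). MBD6 was at 43.3, 42.7 and 38.6 CPM in TET2WT shControl and at 31.0, 25.7 and 27.2 CPM in TET2WT shMBD6 (log2 change -0.57 ± 0.08, edgeR adjusted p = 1.83e-07). In TET2KO it was at 30.6, 30.8 and 29.4 CPM with shControl and at 30.6, 38.3 and 34.2 CPM under the shMBD6 label. The log2 change of 0.19 ± 0.08 (edgeR adjusted p = 0.0574) went against the label, and in a fit of these 2 groups alone it was called higher (0.23 ± 0.08, edgeR adjusted p = 0.0205). TET2 RNA was at 117 to 125 CPM in all 6 TET2WT libraries, 127 to 131 CPM in TET2KO shControl and 91.6 to 101 CPM in the libraries labelled TET2KO shMBD6, and RNA counts over the whole gene do not check a knockout of the protein. TET2KO shMBD6 replicate 1 had 24480 genes detected, against 26963 and 26930 in the other libraries of its group, and TET2WT shControl replicate 1 had 28970 against 31932 and 31853. Both differed more from their group than its other libraries did from each other, with a chi-square per degree of freedom of 13.5 and 14.9 against 9.62 and of 11.3 and 11.01 against 6.95. Without the former, 12 hosts were higher and 3 lower between the TET2KO groups, and without the latter 19 were lower and 1 higher in TET2WT shMBD6, against 10 and 2 and against 19 and 2 with all libraries. The summed level of 9 erythroleukaemia markers was 230 to 248 CPM in TET2WT shControl, 184 to 200 CPM in TET2WT shMBD6, 143 to 151 CPM in TET2KO shControl and 184 to 189 CPM in TET2KO shMBD6, with HBG2 and HBE1 at 0, and 6 markers of other blood cells summed to 1.91 to 4.10 CPM with ELANE at 0. In mESC the 8 stem cell markers summed to 1238 to 1279 CPM in siControl and 1057 to 1081 CPM in siNsun2, with Sox2 at 0, and 6 fibroblast markers to 32.7 to 34.9 CPM and 27.1 to 29.5 CPM. Reads shared by genes were set aside, so a level of 0 for a marker does not show that it is not expressed.

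In mESC, Gas5 had by far the highest level per kilobase of gene span among the hosts. In siNsun2 several abundant hosts showed a small decrease and Snhg14 an increase. For most of the smaller decreases the direction depended on how libraries were scaled. Of the 18 mouse hosts, 17 passed the filter on low counts, and Snhg3, with 9 reads in all 6 libraries, did not. Snhg3 lies within Rcc1 on the same strand over 5592 of its 5673 bases, and reads shared by genes were set aside, so its level is uncertain. In siControl the mean level per kilobase of gene span was 70.6 CPM for Gas5, 39.7 for Snhg5, 33.9 for Snhg1, 20.6 for Zfas1, 14.5 for Snhg8 and 13.5 for Snhg6. The lowest of the tested hosts on that scale were Snhg18 at 0.101 and Snhg14, which spans 667836 bases, at 0.0536 CPM per kilobase. This order takes the whole span as the length counted. Snhg14 has 26093 exonic bases, so the order would differ if only reads in exons were counted. The annotated snoRNA genes inside the 18 hosts numbered 252, of which 208 lay in Snhg14, and all 252 had 0 counts. Changes below are for that reason changes of host genes as counted and say nothing about mature snoRNA levels.

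Gas5 (mm10, chr1:161034422-161038539, plus strand) carries box C/D snoRNAs in its introns, Snhg5 carries Snord50a, Zfas1 carries Snord12 and Snhg8 carries the H/ACA snoRNA Snora24. These are shown as examples of the RNAs made from 4 of the 5 mouse hosts with the highest level per kilobase of span. The other is Snhg1, whose human counterpart is shown further on. Capitals mark the TGATGA box C and the CTGA box D of a C/D snoRNA or the ACA box 3 bases from the end of an H/ACA snoRNA.
Snord47 in Gas5, chr1:161038082-161038158, plus strand: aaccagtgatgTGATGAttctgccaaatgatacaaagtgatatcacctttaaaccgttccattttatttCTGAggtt
Snord80 in Gas5, chr1:161037604-161037680, plus strand: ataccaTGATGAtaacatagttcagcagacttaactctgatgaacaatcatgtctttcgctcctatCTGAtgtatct
Snord50a in Snhg5, chr9:88521529-88521600, minus strand: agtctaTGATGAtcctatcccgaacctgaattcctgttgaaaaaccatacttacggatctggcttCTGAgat
Snord12 in Zfas1, chr2:167065276-167065365, plus strand: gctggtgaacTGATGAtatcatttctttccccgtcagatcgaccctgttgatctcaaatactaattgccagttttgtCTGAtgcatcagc
Snora24 in Snhg8, chr3:123507937-123508066, minus strand: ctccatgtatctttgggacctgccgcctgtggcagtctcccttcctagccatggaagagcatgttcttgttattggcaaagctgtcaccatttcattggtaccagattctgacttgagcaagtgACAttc
Apart from Snhg14, both C/D boxes were found in 22 of the annotated mouse snoRNAs and the ACA box in 11.

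Gas5, whose spliced RNA is known as a growth-arrest transcript, was at 282, 293 and 297 CPM in siControl and at 241, 234 and 238 CPM in siNsun2. Every siNsun2 library was below every siControl library, and the log2 change was -0.29 ± 0.02 (edgeR quasi-likelihood test, Benjamini-Hochberg adjusted p = 4.45e-18). Snhg1, host of a row of C/D snoRNAs, was at 97.8, 99.9 and 104 CPM in siControl and at 84.8, 81.3 and 84.1 CPM in siNsun2 (log2 change -0.27 ± 0.03, edgeR adjusted p = 4.21e-11). The groups did not overlap for Snhg1 either. Both decreases kept their sign with total gene counts as the scale, at -0.11 for Gas5 and -0.09 for Snhg1 on the log2 scale, and only Gas5 was still called with TMM factors taken from genes whose mean log2 CPM was at least 5, at -0.08.

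In all, 8 of the 17 tested mouse hosts were lower and 1 was higher at an adjusted p under 0.05, against 24.3% of all genes lower and 25.8% higher, 50.2% in either direction. With total gene counts 2 were lower and 3 higher, and with TMM factors from abundant genes 1 was lower and 3 higher. The median log2 change of the 17 hosts was -0.14, beside 0.14 over the 27603 genes tested and -0.21 over the 5534 genes whose mean log2 CPM was at least 5. Snhg5 was at 71.4, 74.6 and 77.9 CPM in siControl and at 66.5, 63.6 and 63.3 CPM in siNsun2 (log2 change -0.21 ± 0.04, edgeR adjusted p = 2.14e-06). Zfas1 was at 58.6, 60.5 and 61.9 CPM against 53.2, 52.6 and 55.2 CPM (-0.17 ± 0.04, edgeR adjusted p = 0.000371). For both genes all siNsun2 libraries were below all siControl libraries on the TMM scale, but Zfas1 came out at 0.01 with total gene counts and Snhg5 at -0.03, neither of them called.

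Among the less abundant hosts, Epb41l4aos, the counterpart of EPB41L4A-AS1, was at 7.53, 6.75 and 7.51 CPM in siControl and at 5.71, 5.20 and 5.49 CPM in siNsun2 (log2 change -0.41 ± 0.12, edgeR adjusted p = 0.00274). Snhg8 was at 11.4, 12.4 and 13.4 CPM against 9.64, 9.76 and 10.5 CPM (-0.31 ± 0.09, edgeR adjusted p = 0.00309). Neither pair of groups overlapped, and neither call was kept with total gene counts, where the log2 changes were -0.23 and -0.13. Snhg12 (30.1, 30.9 and 30.3 CPM against 27.5, 26.4 and 28.1 CPM) and Snhg17 (63.4, 59.2 and 56.6 CPM against 53.4, 54.8 and 54.8 CPM) fell by 0.15 and 0.14 on the log2 scale (edgeR adjusted p = 0.0184 and 0.00451), and both changed sign, to 0.03 and 0.04, with total gene counts. Snhg12 was not called without siNsun2 replicate 2 (log2 change -0.13), nor Snhg17 without siControl replicate 1 (-0.10).

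Dancr, the host of Snora26, was at 20.3, 16.4 and 17.5 CPM in siControl and at 18.01, 18.5 and 21.0 CPM in siNsun2, and the groups overlapped (log2 change 0.09 ± 0.07, edgeR adjusted p = 0.339). With total gene counts its log2 change was 0.27 and was called. The other 7 hosts that were tested and not called, Snhg6, Snhg9, Snhg10, Snhg11, Snhg15, Snhg18 and Snhg20, had log2 changes from -0.31 in Snhg9 to -0.03 in Snhg15, with SEs of 0.05 in Snhg11 to 0.48 in Snhg18. Snhg15, at 29.4, 32.1 and 30.1 CPM against 29.2, 30.7 and 30.1 CPM, was the least changed of them on the TMM scale and came out at 0.15 with total gene counts.

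Snhg14, the host of the repeated C/D snoRNAs of the imprinted region around Snrpn and an antisense transcript of Ube3a, was the only host called higher. It was at 34.9, 35.7 and 36.9 CPM in siControl and at 45.3, 48.3 and 46.3 CPM in siNsun2, with no overlap (log2 change 0.38 ± 0.05, edgeR adjusted p = 6.63e-11), and the increase was called under all 3 other scalings, at 0.32 to 0.59. Snrpn, on the same strand, had a log2 change of 0.73 ± 0.09 and Ube3a, on the opposite strand, -0.17 ± 0.02. Per kilobase of span, Snhg14 was at 0.0536 CPM in siControl and 0.0698 CPM in siNsun2. The 1047 olfactory receptor genes, which stem cells are not known to use, were at a mean of 0.0273 CPM per kilobase in siControl and 0.0410 in siNsun2, and reads outside annotated genes were 19.6% to 20.2% of reads in siControl and 28.9% to 29.9% in siNsun2. The part of these shifts in the result was not tested. Because the feature type counted is not given, Snhg14 was not compared in level with the olfactory receptor genes.

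**Figure D1:**
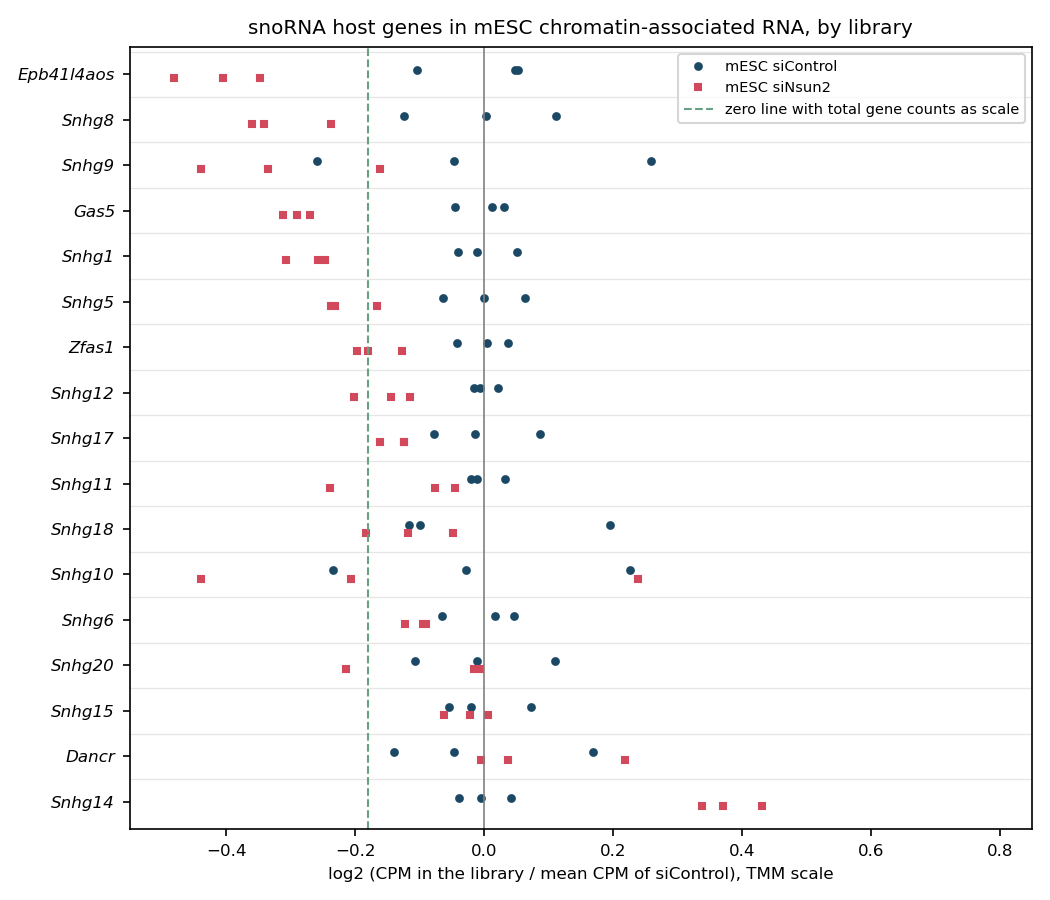
Each point is 1 mESC library: the horizontal axis gives the log2 ratio of its CPM (TMM scale) to the mean of siControl, and each row is 1 tested snoRNA host gene. The siNsun2 points of Gas5, Snhg1, Snhg5 and Zfas1 lie to the left of all siControl points and those of Snhg14 to the right; the dashed line shows where 0 would lie with total gene counts as the scale, on which 9 of the 17 hosts changed sign, Zfas1, Snhg12 and Snhg17 among them.

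The genes that share a start region with a mouse host were taken as any gene on the opposite strand whose start lies within 1000 bp. Of 5 such partners, Slc3a2, an amino acid transporter subunit that starts 106 bp from Snhg1, was lower (log2 change -0.42 ± 0.03, edgeR adjusted p = 8.75e-21) and Sema5a, 148 bp from Snhg18, was higher (0.27 ± 0.06, edgeR adjusted p = 0.0001). Zbtb37 beside Gas5 (-0.08 ± 0.04), Znfx1 beside Zfas1 (-0.02 ± 0.05) and Glrx5 beside Snhg10 (-0.01 ± 0.12) did not pass the test. Over all genes 24.3% were lower and 25.8% higher.

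Among proteins of the pathway in mESC, 3 of the 8 snoRNP core proteins were lower and the other 5 did not pass the test, with a median log2 change of -0.06. The 3 were Nop58 (-0.27), Nop56 (-0.21) and Dkc1, dyskerin (-0.19), of which the first pair bind box C/D snoRNAs. Of the 8 assembly factors 5 were lower, led by Ruvbl2 (-0.40) and Nufip1 (-0.30), and of 10 nonsense-mediated decay factors 9 were lower, led by Smg1 (-0.50) and Upf3a (-0.35). The medians of these lists were -0.23 and -0.20, beside -0.21 over abundant genes, of which 4356 of 5534 were lower, and 24.3% of all genes were lower. Protein-coding genes with a nested snoRNA moved in both directions, 176 of 256 lower and 50 higher with a median of -0.18, the ends of the called range being Tmem62 (-0.67), Hibadh (-0.55), Tbxas1 (1.04) and Mroh9 (1.21). Of 46 other long noncoding genes with a nested snoRNA, 30 were higher and 4 lower, with a median log2 change of 0.56. Over all genes 25.8% were higher and 24.3% lower.

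In K562 most hosts followed a crossed pattern of signs. They were lower in TET2WT shMBD6 and in TET2KO shControl than in TET2WT shControl. They were also higher in the libraries labelled TET2KO shMBD6 than in TET2KO shControl. By the signs of the fitted log2 changes 17 of the 27 tested hosts followed this pattern, and for 9 of them all 3 differences passed the test. The share of all genes with this pattern was not counted, so whether it is particular to hosts is not known. The pattern was not among the planned results. The 3 differences share control libraries, so the level of 1 control group enters more than 1 difference, and the counts are descriptive. Nearness to the TET2WT shControl level is not part of the pattern. SNHG15 had a mean of 47.3 CPM in TET2KO shMBD6 and 49.1 CPM in TET2WT shControl, but SNHG8 had 9.65 and 13.2 CPM. SNHG15, SNHG8, SNHG1 and DANCR changed most in the direction of the pattern. SNHG14, SNHG20 and SNHG22 had the opposite sign in all 3 differences, which were all called for SNHG14 alone. SNHG5, SNHG9, SNHG21, SNHG25, SNHG27, SNHG30 and SNHG31 did not follow the pattern in at least 1 of the 3. SNHG21 was lower in TET2WT shMBD6 but had a log2 change of 0.45 in TET2KO shControl, where it was not called. Of the 29 human hosts, 27 passed the filter on low counts. SNHG18, with 23 reads in the 12 libraries, and SNHG32, with 6, did not pass, and SNHG3, SNHG4 and SNHG28 had 0 reads. In GENCODE v44, which differs from the authors' v29, those last 3 lie over their whole span within or across other genes on their strand, RCC1 in the case of SNHG3, MATR3 for SNHG4 and VSIG8 for SNHG28. DANCR, SNHG5, SNHG20 and SNHG21 are also overlapped over most of their span in v44, so that their counts are uncertain, and levels were not compared between human genes because 2 of the 29 identifiers only had the same version in both annotations. Of 145 nested snoRNA genes 144 had 0 counts, as in the mouse.

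SnoRNAs of the 5 hosts with the highest genotype by shRNA interaction in K562, described below, are shown with the same marking as above, on GRCh38.
SNORA9 in SNHG15, chr7:44985378-44985510, minus strand: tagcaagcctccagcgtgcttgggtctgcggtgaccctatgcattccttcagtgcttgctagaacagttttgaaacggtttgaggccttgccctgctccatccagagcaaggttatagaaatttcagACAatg
SNORA24 in SNHG8, chr4:118279190-118279320, plus strand: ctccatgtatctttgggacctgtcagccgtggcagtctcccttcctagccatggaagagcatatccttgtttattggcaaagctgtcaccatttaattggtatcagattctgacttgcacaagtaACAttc
SNORA26 in DANCR, chr4:52713249-52713370, plus strand: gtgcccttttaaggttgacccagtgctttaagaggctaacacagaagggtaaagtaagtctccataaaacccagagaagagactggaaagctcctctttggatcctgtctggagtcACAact
SNORD25 in SNHG1, chr11:62855564-62855632, minus strand: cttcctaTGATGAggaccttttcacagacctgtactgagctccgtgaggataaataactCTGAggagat
SNORD27 in SNHG1, chr11:62855012-62855083, minus strand: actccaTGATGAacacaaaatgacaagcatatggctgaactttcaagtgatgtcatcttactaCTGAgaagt
SNORD60 in SNHG19, chr16:2155023-2155105, minus strand: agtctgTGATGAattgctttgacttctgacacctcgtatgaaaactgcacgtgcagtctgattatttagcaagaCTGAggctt
These hosts carried snoRNAs of both classes.

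The first question is how the shMBD6 libraries differ from the shControl libraries in the wild-type line. In TET2WT, 19 of the 27 tested hosts were lower and 2 higher with shMBD6, against 24.7% of all genes lower and 17.7% higher, 42.5% in either direction. The median log2 change was -0.60 over the 27 hosts, 0.10 over the 26023 genes tested and -0.17 over the 5959 genes whose mean log2 CPM was at least 5. Of these 5959 genes, 3532 were called lower and 1082 higher, so the share of all genes understates calls among abundant genes. For all 21 called hosts the shMBD6 and shControl libraries did not overlap. The share of all called genes without overlap was not counted, so this adds no support beyond the calls. The hosts together took 0.0906% to 0.0943% of gene counts in shControl and 0.0625% to 0.0648% in shMBD6. Reads outside genes were 13.1% to 13.3% of reads in TET2WT shControl and 15.6% to 16.0% in TET2WT shMBD6, and the erythroleukaemia marker sum was 230 to 248 CPM and 184 to 200 CPM. Their part in the result was not tested.

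SNHG15 (GRCh38, chr7:44983019-44986961, minus strand) was at 46.9, 49.7 and 50.7 CPM in TET2WT shControl and at 20.4, 19.03 and 22.9 CPM in TET2WT shMBD6. All 3 shMBD6 libraries were below 23 CPM, and the log2 change was -1.24 ± 0.07 (edgeR quasi-likelihood test, Benjamini-Hochberg adjusted p = 2.43e-16). SNHG8 was at 13.5, 13.1 and 12.9 CPM with shControl and at 5.69, 5.01 and 5.92 CPM with shMBD6 (log2 change -1.25 ± 0.13, edgeR adjusted p = 1.62e-09). SNHG19, a short host next to TRAF7, was at 4.10, 3.68 and 3.95 CPM with shControl and at 1.72, 1.59 and 1.69 CPM with shMBD6 (log2 change -1.23 ± 0.25, edgeR adjusted p = 0.000104). The groups were wide apart for all of these genes, although SNHG19 rests on few reads.

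SNHG1 was at 85.6, 77.4 and 80.8 CPM in TET2WT shControl and at 40.5, 39.4 and 41.7 CPM in TET2WT shMBD6 (log2 change -1.003 ± 0.06, edgeR adjusted p = 1.34e-15), 0.499 of the control level. DANCR was at 36.0, 38.6 and 40.5 CPM against 20.2, 19.9 and 21.2 CPM (-0.91 ± 0.07, edgeR adjusted p = 8.69e-13). SNHG17, the host of SNORA71 copies, was at 99.7, 95.6 and 93.4 CPM against 52.9, 51.3 and 50.4 CPM (-0.90 ± 0.04, edgeR adjusted p = 9.53e-18). None of these groups overlapped.

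EPB41L4A-AS1, the host of SNORA13, was at 14.4, 15.7 and 14.9 CPM in TET2WT shControl and at 7.34, 8.04 and 7.80 CPM in TET2WT shMBD6 (log2 change -0.96 ± 0.11, edgeR adjusted p = 5.60e-09). GAS5 was at 106, 95.6 and 96.4 CPM against 63.4, 59.7 and 59.6 CPM (-0.70 ± 0.05, edgeR adjusted p = 5.34e-14). ZFAS1, the host of SNORD12 copies, was at 127, 120 and 123 CPM against 80.7, 88.2 and 85.9 CPM (-0.54 ± 0.04, edgeR adjusted p = 7.54e-13). Again no shMBD6 library reached the lowest shControl library. SNHG11 (-0.97 ± 0.19), SNHG21 (-0.82 ± 0.25), SNHG16 (-0.76 ± 0.08) and SNHG12 (-0.71 ± 0.07) also fell, and the other 6 hosts called lower had log2 changes from -0.68 in SNHG7 to -0.35 in SNHG29. SNHG21 was not called without TET2WT shMBD6 replicate 1, where its log2 change was -0.67.

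SNHG14 was higher in TET2WT shMBD6, at 5.98, 5.41 and 5.55 CPM against 3.79, 3.47 and 3.81 CPM with shControl (log2 change 0.62 ± 0.10, edgeR adjusted p = 2.51e-06). SNHG22, at 33.8, 36.5 and 34.5 CPM with shControl and at 40.0, 37.2 and 39.2 CPM with shMBD6, was called by a narrow margin (0.15 ± 0.06, edgeR adjusted p = 0.0423), and the call was lost in 8 of the 12 fits that left out 1 library. These 8 left out TET2WT shControl replicates 1 or 3, TET2WT shMBD6 replicates 1 or 3, any TET2KO shControl replicate or TET2KO shMBD6 replicate 3, with log2 changes of 0.12 to 0.15, and the count of higher hosts was then 1. SNHG9, SNHG20, SNHG25, SNHG27, SNHG30 and SNHG31 did not pass the test, with log2 changes from -0.59 ± 0.37 in SNHG25 to 0.18 ± 0.72 in SNHG20.

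**Figure D2:**
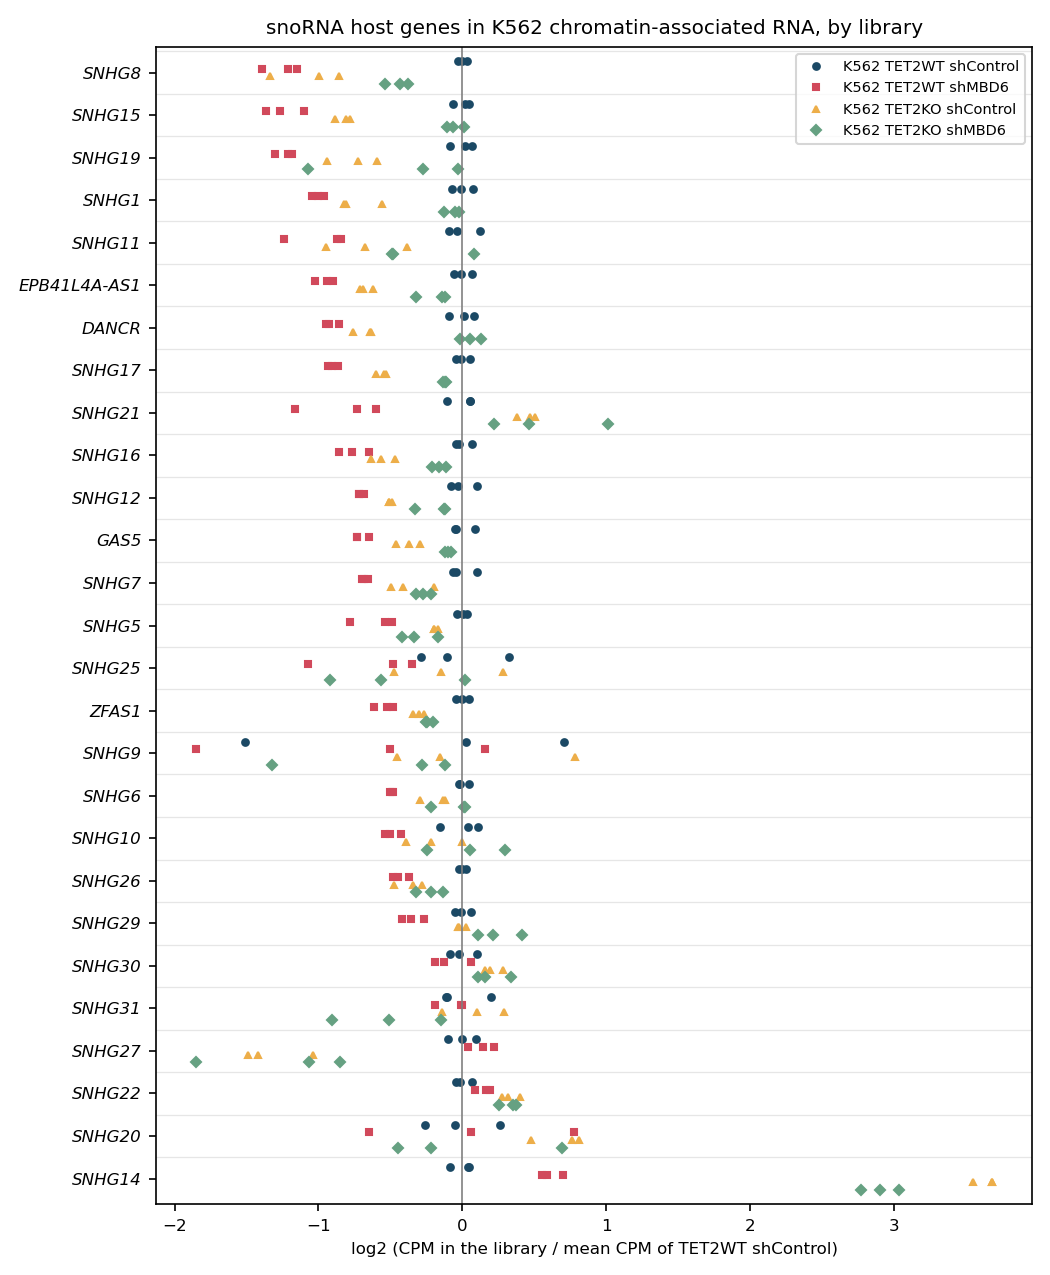
Each point is 1 K562 library: the horizontal axis gives the log2 ratio of its CPM (TMM scale) to the mean of TET2WT shControl, each row is 1 snoRNA host gene and the markers stand for the 4 groups. In most rows TET2WT shMBD6 lies to the left, TET2KO shControl between it and 0, and TET2KO shMBD6 to the right of TET2KO shControl. SNHG14 lies far to the right in both TET2KO groups.

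The second question is how the TET2KO line differs from the TET2WT line under the control shRNA. Of the 27 tested hosts 16 were lower and 2 higher in TET2KO shControl, against 22.3% of all genes lower and 23.5% higher, 45.8% in either direction, with a median log2 change of -0.36 beside -0.05 over all genes and 0.04 over the genes whose mean log2 CPM was at least 5. Of the 5959 genes whose mean log2 CPM was at least 5, 1970 were called lower and 2619 higher. All 18 called hosts had groups that did not overlap, and the share over all called genes was not counted. This comparison and the former one share the TET2WT shControl libraries, so their values are given side by side and their likeness was not assessed. The erythroleukaemia marker sum was also lower in TET2KO shControl, at 143 to 151 CPM against 230 to 248 CPM, and its part in the result was not tested.

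SNHG27, a low-abundance host, was at 3.54, 3.32 and 3.10 CPM in TET2WT shControl and at 1.18, 1.62 and 1.24 CPM in TET2KO shControl (log2 change -1.31 ± 0.26, edgeR adjusted p = 8.59e-05). SNHG8 was at 5.22, 7.28 and 6.61 CPM in TET2KO shControl, below the 12.9 to 13.5 CPM of TET2WT shControl (-1.05 ± 0.13, edgeR adjusted p = 3.42e-08). SNHG15 was at 28.0, 28.6 and 26.6 CPM (-0.83 ± 0.07, edgeR adjusted p = 2.05e-12). All 3 genes stood apart from TET2WT shControl in every library.

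SNHG1 was at 55.2, 45.9 and 46.3 CPM in TET2KO shControl, where replicate 1 was the highest and was still below the 77.4 CPM of the lowest TET2WT shControl library (log2 change -0.72 ± 0.06, edgeR adjusted p = 1.64e-12). DANCR was at 24.5, 24.7 and 22.7 CPM (-0.68 ± 0.07, edgeR adjusted p = 3.69e-10) and EPB41L4A-AS1 at 9.26, 9.72 and 9.14 CPM (-0.68 ± 0.11, edgeR adjusted p = 2.50e-06). GAS5 was at 80.9, 72.0 and 76.8 CPM (-0.37 ± 0.05, edgeR adjusted p = 4.72e-08) and ZFAS1 at 100, 103 and 97.3 CPM (-0.30 ± 0.04, edgeR adjusted p = 1.30e-07). Both were lower than in every TET2WT shControl library, but by less than SNHG1. SNHG19 (-0.74 ± 0.24), SNHG11 (-0.65 ± 0.19), SNHG17 (-0.56 ± 0.04) and SNHG16 (-0.55 ± 0.08) fell as well, and the other 4 hosts called lower were SNHG12, SNHG26, SNHG7 and SNHG5, with log2 changes from -0.50 to -0.19. SNHG19 was not called without TET2KO shControl replicate 2 (log2 change -0.65), and SNHG5 was not called in 5 of the 12 fits that left out 1 library, which left out TET2WT shControl replicates 2 or 3 or any TET2KO shControl replicate (-0.20 to -0.17).

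SNHG14 was the most changed host between the lines. It was at 3.79, 3.47 and 3.81 CPM in TET2WT shControl and at 47.4, 43.1 and 47.3 CPM in TET2KO shControl, 12.4 times as high (log2 change 3.64 ± 0.10, edgeR adjusted p = 8.12e-26). No TET2KO library came near a TET2WT library. UBE3A, which lies on the opposite strand of the same region, had a log2 change of 0.59 ± 0.03. SNRPN had few counts and did not pass the test (-0.46 ± 0.55). It overlaps SNHG14 on the same strand in GENCODE v44, and reads shared by genes were set aside, so its level is uncertain. The 870 tested genes of chromosome 15 had a median of 0.53, beside -0.05 over all genes. On spans of GENCODE v44, SNHG14 was at 0.00836 CPM per kilobase in TET2WT shControl and 0.104 in TET2KO shControl. On the same scale 344 olfactory receptor genes were at a mean of 0.0738 and 0.105. The authors' annotation differs and the feature type counted is not given, so SNHG14 was not compared in level with these genes. The part of the chromosome 15 and olfactory receptor shifts in the result was not tested. SNHG22, which shares its start region with ACAA2, was at 42.3, 46.2 and 43.6 CPM in TET2KO shControl (log2 change 0.33 ± 0.06, edgeR adjusted p = 2.35e-05), above all 3 TET2WT shControl libraries.

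The third question is what the libraries labelled shMBD6 show in TET2KO, where MBD6 RNA itself was not lower. There 10 of the 27 tested hosts were higher and 2 lower than in TET2KO shControl, against 15.7% of all genes higher and 20.6% lower, 36.4% in either direction, and the median log2 change was 0.15 beside -0.07 over all genes. Among the 5959 genes whose mean log2 CPM was at least 5, 1904 were called higher and 2325 lower. The groups did not overlap for any of the 12 called hosts, and the share over all called genes was not counted. SNHG15 was at 49.4, 46.8 and 45.6 CPM in the libraries labelled TET2KO shMBD6 (log2 change 0.77 ± 0.07, edgeR adjusted p = 2.60e-11), against 26.6 to 28.6 CPM in TET2KO shControl. DANCR was at 38.0, 39.8 and 41.9 CPM (0.73 ± 0.07, edgeR adjusted p = 1.35e-10).

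SNHG1 was at 78.3, 80.0 and 74.4 CPM in the libraries labelled TET2KO shMBD6 (log2 change 0.66 ± 0.06, edgeR adjusted p = 4.02e-11), above all 3 TET2KO shControl libraries. SNHG8 was at 10.1, 9.07 and 9.76 CPM (0.60 ± 0.13, edgeR adjusted p = 0.000388) and EPB41L4A-AS1 at 11.95, 13.6 and 13.8 CPM (0.48 ± 0.11, edgeR adjusted p = 0.000447). GAS5 was at 91.4, 93.7 and 92.8 CPM (0.27 ± 0.05, edgeR adjusted p = 1.72e-05). Each of these levels was between those of TET2KO shControl and the highest TET2WT shControl library. SNHG17 (0.43 ± 0.04), SNHG16 (0.39 ± 0.08), SNHG12 (0.31 ± 0.07) and SNHG29 (0.26 ± 0.05), the host of SNORD49 copies, completed the 10. ZFAS1, at 104, 107 and 104 CPM, did not pass the test (0.07 ± 0.04, edgeR adjusted p = 0.184), but it was called with total gene counts, at 0.20.

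The 2 hosts that were lower in the libraries labelled TET2KO shMBD6 were SNHG14, at 25.2, 27.6 and 30.3 CPM against 43.1 to 47.4 CPM (log2 change -0.73 ± 0.08, edgeR adjusted p = 9.47e-09), and SNHG31, at 6.67, 8.75 and 11.3 CPM against 13.4, 11.3 and 15.2 CPM (-0.58 ± 0.14, edgeR adjusted p = 0.00125). SNHG14 was apart by a wide margin, whereas for SNHG31 the nearest libraries of the 2 groups both round to 11.3 CPM.

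**Figure D3:**
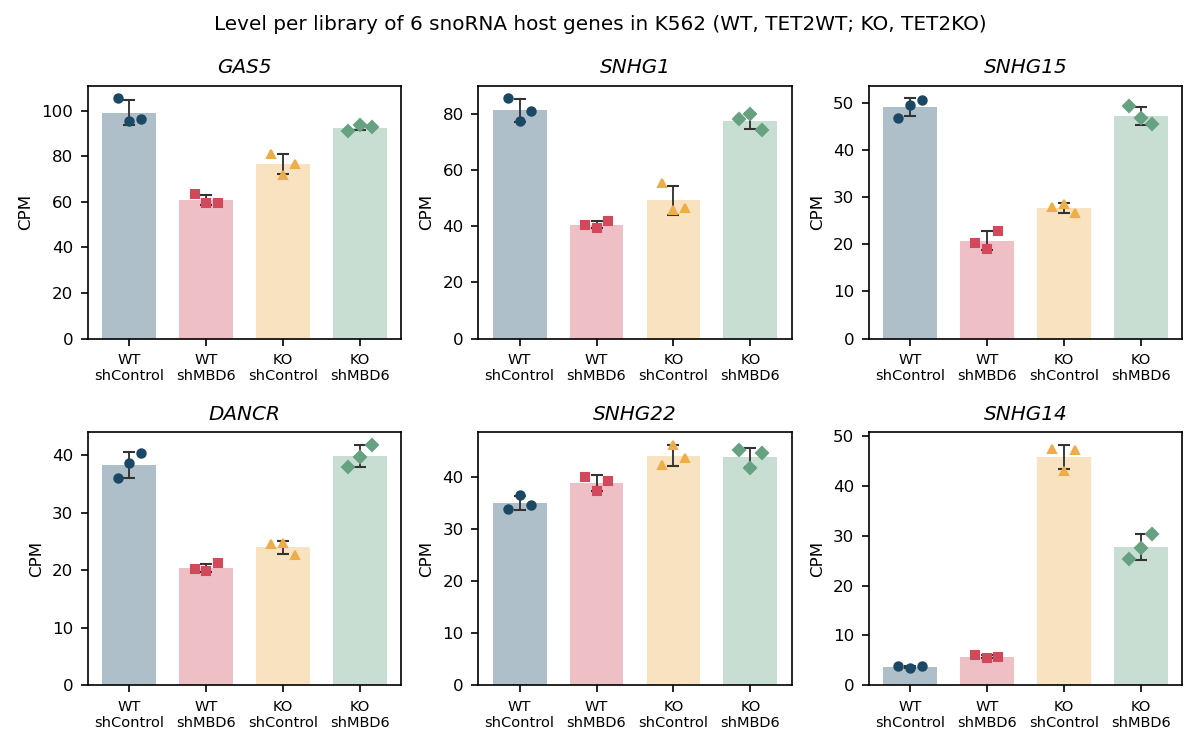
CPM on the TMM scale in each of the 12 K562 libraries for 6 snoRNA host genes, with points for libraries and bars for the mean ± SD of the 3 libraries of a group, on linear axes that start at 0. SNHG15 fell from 46.9 to 50.7 CPM in TET2WT shControl to 19.03 to 22.9 CPM in TET2WT shMBD6 and stood at 45.6 to 49.4 CPM in TET2KO shMBD6, and SNHG14 stood above 25 CPM in both TET2KO groups and below 6 CPM in both TET2WT groups.

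Within the shMBD6-labelled libraries, the TET2KO line stood above the TET2WT line for most hosts. There 22 of the 27 tested hosts were higher and 2 lower, against 30.1% of all genes higher and 28.5% lower, 58.6% in either direction, with a median log2 change of 0.54 beside -0.03 over all genes and 0.22 over the genes whose mean log2 CPM was at least 5. Of these abundant genes, 5959 in number, 3816 were called higher and 1043 lower. The groups did not overlap for 23 of the 24 called hosts, the exception being SNHG31, and the share over all called genes was not counted. Among the called hosts, SNHG14 (2.29 ± 0.09), SNHG21 (1.42 ± 0.25), SNHG15 (1.19 ± 0.07), DANCR (0.97 ± 0.07) and SNHG1 (0.94 ± 0.06) rose most, followed by SNHG19 (0.83 ± 0.25), SNHG8 (0.80 ± 0.13), SNHG17 (0.78 ± 0.04), EPB41L4A-AS1 (0.76 ± 0.11) and SNHG11 (0.70 ± 0.19). GAS5 had a log2 change of 0.60 ± 0.05 (edgeR adjusted p = 1.16e-12) and ZFAS1 of 0.31 ± 0.04 (edgeR adjusted p = 1.02e-07). The other 10 hosts called higher had log2 changes from 0.17 in SNHG22 to 0.60 in SNHG29.

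The 2 hosts called lower were SNHG27, at 1.84, 1.58 and 0.922 CPM against 3.66, 3.86 and 3.41 CPM (-1.33 ± 0.26, edgeR adjusted p = 5.18e-05), and SNHG31 (-0.42 ± 0.14, edgeR adjusted p = 0.0117). SNHG27 was lower in the TET2KO line with either shRNA. SNHG31 was not called without TET2KO shMBD6 replicate 1, where its log2 change was -0.24 and the count of lower hosts was 1. The increases of SNHG22 (log2 change -0.05) and SNHG26 (-0.01) changed sign with TMM factors from genes whose mean log2 CPM was at least 5, and those of ZFAS1 (0.09), SNHG5 (0.08), SNHG7 (0.19) and SNHG30 (0.06) were no longer called there. SNHG22 was not called without TET2WT shMBD6 replicate 2 (log2 change 0.15), SNHG26 without TET2WT shMBD6 replicate 1 or 3 or TET2KO shMBD6 replicate 3 (0.17 to 0.20), and SNHG30 without replicate 2 of either group (0.22 to 0.24).

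The difference between the 2 shRNA effects was tested as the genotype by shRNA interaction, which is the log2 change in TET2KO minus the one in TET2WT. It was higher for 19 of the 27 tested hosts and lower for 2, against 23.9% of all genes higher and 25.5% lower, 49.4% in either direction, with a median of 0.73 beside -0.19 over all genes and 0.13 over the genes whose mean log2 CPM was at least 5. Of these abundant genes, 5959 in number, 2910 were called higher and 1822 lower. Among the hosts SNHG15 had the highest value (2.01 ± 0.10, edgeR adjusted p = 3.18e-18), followed by SNHG8 (1.85 ± 0.19), SNHG1 (1.66 ± 0.08), DANCR (1.64 ± 0.10) and SNHG19 (1.57 ± 0.35). Next came EPB41L4A-AS1 (1.44 ± 0.15), SNHG11 (1.35 ± 0.27), SNHG17 (1.33 ± 0.06), SNHG16 (1.15 ± 0.11) and SNHG12 (1.02 ± 0.09). GAS5 stood at 0.98 ± 0.07 (edgeR adjusted p = 4.25e-14) and ZFAS1 at 0.61 ± 0.06 (edgeR adjusted p = 7.90e-11).

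SNHG14 had an interaction of -1.35 ± 0.13 (edgeR adjusted p = 8.49e-11), since it was higher with shMBD6 in TET2WT and lower in the libraries labelled shMBD6 in TET2KO. SNHG31 was at -0.51 ± 0.20 (edgeR adjusted p = 0.031), a call lost in 8 of the 12 fits without 1 library, which left out replicate 1 or 3 of TET2WT shControl, TET2WT shMBD6 or TET2KO shControl, or replicate 1 or 2 of TET2KO shMBD6, with values of -0.51 to -0.34 and a count of lower hosts of 1. SNHG21 (0.97 ± 0.35) was not called without TET2WT shMBD6 replicate 1 or TET2KO shMBD6 replicate 2 (0.72 to 0.82). Because MBD6 RNA went against the label in TET2KO, these values compare libraries by label, and the effect of MBD6 depletion in TET2KO cannot be read from them.

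**Figure D4:**
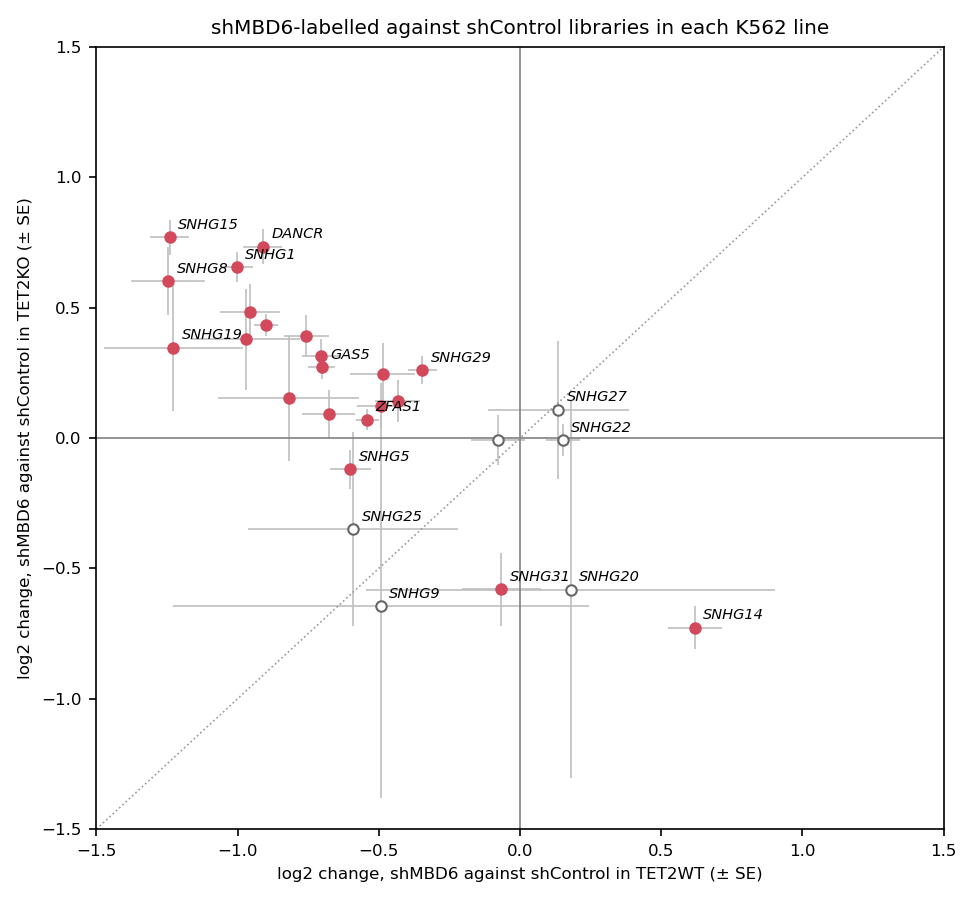
Log2 change of each tested snoRNA host gene between shMBD6 and shControl in TET2WT (horizontal) and in TET2KO (vertical), with error bars of 1 SE. SNHG15, SNHG8, SNHG1 and DANCR lie at the upper left, with -1.25 to -0.91 in TET2WT and 0.60 to 0.77 in TET2KO, and SNHG14 at the lower right, with 0.62 and -0.73.

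Averaged over both shRNA labels, a contrast added after the data were seen because it does not rest on the shRNA labels, 10 of the 27 tested hosts were higher and 1 lower in TET2KO, against 27.7% of all genes higher and 25% lower, 52.7% in either direction, and the median log2 change was 0.10 on the TMM scale and -0.07 with total gene counts. Among the 5959 genes whose mean log2 CPM was at least 5, 3573 were called higher and 879 lower. The balance of calls among the hosts turned with the scale, to 3 higher and 7 lower with total gene counts and 4 higher and 6 lower with factors from abundant genes. SNHG14 (2.96 ± 0.07), SNHG21 (0.94 ± 0.17), SNHG29 (0.29 ± 0.04), SNHG30 (0.25 ± 0.07) and SNHG22 (0.25 ± 0.04) were the most increased and SNHG27 (-1.32 ± 0.18) the decreased host. DANCR (0.14 ± 0.05), GAS5 (0.12 ± 0.03) and SNHG1 (0.11 ± 0.04) had small increases that changed sign with total gene counts, at -0.02, -0.05 and -0.06. EPB41L4A-AS1 (0.04 ± 0.08) and ZFAS1 (0.00 ± 0.03) did not pass the test.

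The start windows of human hosts are shown because several of these genes are known for a pyrimidine tract at their start, a feature that the naming rule did not use. Each window, from RefSeq on GRCh38.p14, runs from 10 bases before the annotated start to 30 bases from it, and capitals mark an unbroken run of at least 5 C or T that covers the start. The first set has such a run and was lower in TET2WT shMBD6.
SNHG8, chr4:118278752-118278791, plus strand: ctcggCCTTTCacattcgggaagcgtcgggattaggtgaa
SNHG19, chr16:2155329-2155368, minus strand: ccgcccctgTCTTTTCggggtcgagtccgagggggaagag
SNHG1, chr11:62855856-62855895, minus strand: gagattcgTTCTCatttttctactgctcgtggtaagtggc
SNHG12, chr1:28581844-28581883, minus strand: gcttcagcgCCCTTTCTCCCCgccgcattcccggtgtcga
ZFAS1, chr20:49278632-49278671, plus strand: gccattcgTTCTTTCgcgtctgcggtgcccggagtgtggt
SNHG5, chr6:85678704-85678743, minus strand: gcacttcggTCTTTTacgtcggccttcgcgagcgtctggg
The second set has no such run over the annotated start and was also lower there, except SNHG27. The GAS5 window lies upstream of the span of GAS5 in GENCODE v44, so whether the counted gene lacks a run is uncertain.
DANCR, chr4:52712384-52712423, plus strand: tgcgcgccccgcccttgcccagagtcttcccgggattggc
SNHG17, chr20:38435299-38435338, minus strand: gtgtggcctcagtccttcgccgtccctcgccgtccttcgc
GAS5, chr1:173869016-173869055, minus strand: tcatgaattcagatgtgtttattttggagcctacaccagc
EPB41L4A-AS1, chr5:112160516-112160555, plus strand: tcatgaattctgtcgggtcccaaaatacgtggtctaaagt
SNHG27, chr4:131764828-131764867, plus strand: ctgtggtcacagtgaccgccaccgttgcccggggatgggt
A run of at least 5 over the start was present in 10 of the 25 hosts with a RefSeq window, 40%, and in 3372 of all 35116 human windows, 9.60%. The motif CACGTG, the E-box read on both strands, was present in 2 of the 25 promoter windows of 250 bases before to 50 after the start, those of SNHG7 and SNHG30, 8%, and in 7.26% of all.

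Of the 10 hosts with a run, 8 were tested, and all 8 were lower in TET2WT shMBD6, with a median log2 change of -0.69 and a range of -1.25 in SNHG8 to -0.43 in SNHG26. Of the 15 tested hosts without one, 9 were lower and 2 higher, with a median of -0.49. Over all genes tested 24.7% were lower and 17.7% higher. In TET2KO shControl against TET2WT shControl all 8 with a run were lower (median -0.43), and 7 of the 15 without were lower and 2 higher (median -0.19). Over all genes 22.3% were lower and 23.5% higher there. Other genes with a run over the start were not compared. These counts are descriptive, the difference between the 2 sets was not tested, and an annotated start may be some bases away from the one used in K562. The windows of GAS5 and SNHG14, both counted as without a run, lie outside their GENCODE v44 spans, so their place in the sets is uncertain. In the mouse annotation the first listed transcript began with at least 5 C or T for Snhg1, with 6 bases, Snhg5, with 7, Snhg8, with 5, and Snhg18, with 6. The mouse run was read from the first transcript base onward, whereas a human run could also extend before the start. The 2 measures are therefore not alike.

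Of 8 human genes on the opposite strand that start within 1000 bp of a host, 6 were lower in TET2WT shMBD6. Over all genes 24.7% were lower there, and 3532 of the 5959 genes whose mean log2 CPM was at least 5. SLC3A2, 51 bp from SNHG1, had log2 changes of -0.51 ± 0.04 in TET2WT shMBD6, -0.37 ± 0.04 in TET2KO shControl and 0.41 ± 0.04 between the TET2KO groups, with an interaction of 0.92 ± 0.05, beside -1.003, -0.72, 0.66 and 1.66 for SNHG1. ZBTB37, 800 bp from GAS5, had -0.20 ± 0.04 in TET2WT shMBD6 but 0.26 ± 0.04 in TET2KO shControl, where GAS5 was lower. ACAA2, 12 bp from SNHG22, was lower in TET2WT shMBD6 (-0.45 ± 0.14, edgeR adjusted p = 0.00854), where SNHG22 was narrowly higher. BARD1, 498 bp from SNHG31, had -0.34 ± 0.04, and TRAF7 beside SNHG19 (-0.06 ± 0.08) and RPS2 beside SNHG9 (-0.17 ± 0.08) did not pass the test.

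The proteins that bind snoRNAs were given as a list chosen by role. Of 8 core snoRNP proteins, 7 were lower in TET2WT shMBD6, against 24.7% of all genes, with a median log2 change of -0.59, led by NOP56 (-0.79), a C/D protein, and by NHP2 (-0.69) and GAR1 (-0.68), both H/ACA proteins. In TET2KO shControl 6 of the 8 were lower, against 22.3% of all genes, and NOP10 was higher (0.80). In the libraries labelled TET2KO shMBD6, 7 were higher than in TET2KO shControl, against 15.7% of all genes, led by NHP2 (0.64) and SNU13 (0.56). The interaction was higher for 7 of the 8, against 23.9% of all genes, with a median of 1.01. NOP10, like SNHG14, lies on chromosome 15. Of the 5959 genes whose mean log2 CPM was at least 5, 3532 were called lower in TET2WT shMBD6 and 1970 in TET2KO shControl. Between the TET2KO groups 1904 of them were called higher, and 2910 had a higher interaction.

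Over all genes 24.7% were lower and 17.7% higher in TET2WT shMBD6. Among the 5959 genes whose mean log2 CPM was at least 5, 3532 were lower and 1082 higher. Of 8 snoRNP assembly factors 6 were lower in TET2WT shMBD6, among them PIH1D1 (-0.47), RUVBL2 (-0.46) and NAF1 (-0.44), and the other pair, ZNHIT3 and NUFIP1, did not pass the test. Of 9 tested nonsense-mediated decay factors 8 were lower there, led by SMG5 (-0.49), and SMG1 was higher (0.11), with a median of -0.22, close to the -0.17 of abundant genes. Protein-coding genes with a nested snoRNA had 144 of 258 lower and 55 higher with a median of -0.19, with CATSPERB (-1.84), AMMECR1 (-0.96), RHEX (1.73) and RAMP1 (1.83) at the ends of the called range. Of 33 other long noncoding genes with a nested snoRNA 11 were higher and 1 lower, with a median log2 change of 0.95, and MIR493HG (2.77) and LINC02463 (2.41) had the highest called values. In TET2KO shControl against TET2WT shControl, XACT (7.21) among the noncoding and LRCH2 (5.01) among the protein-coding hosts were the most increased.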

How the data were processed

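The files were 1 table of counts per library, and the deposited counts were made by the authors from caRNA reads trimmed with Trimmomatic 0.39, aligned to mm10 or hg38 with HISAT2 2.2.1 and counted per GENCODE gene (M19 or v29) with HTSeq 0.12.4, per the submitters' processing notes and the study's methods. The methods also name featureCounts for caRNA, and neither the strand option nor the feature type counted is given in the sources used here. ERCC spike-ins were added by the authors, but the tables list no spike-in, so no absolute scale was applied.

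Library sizes were taken without the lines for reads assigned to no gene: reads outside genes were 19.6% to 29.9% of reads in mESC and 13.1% to 16.0% in K562, and reads in more than 1 gene 2.13% to 2.52% and 4.63% to 5.24%. Genes passing filterByExpr with a minimum count of 10 were tested with the quasi-likelihood test of edgeR 4.0.16 (R 4.3.3) after TMM scaling, robust and two-sided, with Benjamini-Hochberg adjustment over all genes tested and calls at an adjusted p under 0.05. The 6 mESC libraries formed 1 fit and the 12 K562 libraries another. CPM are on the TMM scale, log2 changes are followed by their SE, and interaction values are differences of log2 changes. The pipeline was tested on simulated counts. Alternatives were DESeq2 1.42.0 (size factors and Wald test), total gene counts, TMM from abundant genes, no filter, a replicate block, fits of the compared groups alone and each library left out. Replicates of a group differed by more than counting error (chi-square per degree of freedom of 3.92 to 5.66 in mESC and 5.30 to 14.9 in K562), so none was counted as a copy. Depth was 52158403 to 102070220 gene counts per library.

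Annotations (GENCODE vM21 and v44, RefSeq promoters) served for positions, overlaps and sequences, and matched 99.9% of mouse and 99.2% of human identifiers. RefSeq held no start window for SNHG6, SNHG9, SNHG15 and SNHG25. The hosts and lists were chosen with earlier results of these data known. All called hosts were named in order of log2 change, up to 10 in each direction with their values, and GAS5, DANCR, ZFAS1, EPB41L4A-AS1 and SNHG1 always. Partner genes, pathway lists and snoRNA-bearing genes followed fixed rules, with 2 genes named at each end of a list. The labels put 1 further mESC library (Pspc1 wild type) outside these comparisons.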

Additional observations from a re-analysis of the deposited data

Results flagged for a closer look

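For 21 of the 27 tested human hosts the test of the difference between the 2 shRNA effects passed the threshold, that is, the log2 change between the libraries labelled shMBD6 and shControl differed between TET2KO and TET2WT (edgeR quasi-likelihood test of the interaction, Benjamini-Hochberg adjusted). Hosts with a value above 1 on the log2 scale were SNHG15 (2.01), SNHG8 (1.85), SNHG1 (1.66), DANCR (1.64), SNHG19 (1.57), EPB41L4A-AS1 (1.44), SNHG11 (1.35), SNHG17 (1.33), SNHG16 (1.15) and SNHG12 (1.02). Smaller positive differences were those of GAS5 (0.98), SNHG21 (0.97), SNHG7 (0.77), SNHG10 (0.73), SNHG6 (0.62), SNHG29 (0.61), ZFAS1 (0.61), SNHG26 (0.58) and SNHG5 (0.48). SNHG14 (-1.35) and SNHG31 (-0.51) had negative ones. MBD6 RNA, the target, itself had an interaction of 0.75 ± 0.11 (edgeR adjusted p = 4.51e-07), being lower with shMBD6 in TET2WT and not lower in the libraries labelled shMBD6 in TET2KO, and whether that and the host values are related was not tested. Groups of 3 libraries were not tested for 1 that stands apart.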

How the results depend on the processing

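Scaling mattered most. In mESC, total gene counts moved the median of all genes from 0.14 to 0.32 and gave 3 hosts higher and 2 lower, with a host median of 0.044 and 9 of 17 hosts with another sign, of which those called on either scale were Zfas1 (0.013), Snhg12 (0.027), Snhg15 (0.15) and Snhg17 (0.044). TMM factors from genes whose mean log2 CPM was at least 5 moved it to 0.34 and gave 3 higher and 1 lower, with a host median of 0.073, again 9 with another sign and Zfas1 at 0.042, Snhg12 at 0.056, Snhg15 at 0.18 and Snhg17 at 0.073. In K562 these factors reversed the called SNHG22 (-0.045) and SNHG26 (-0.0088) between the lines with shMBD6. For TET2KO against TET2WT averaged over shRNA, chosen after the data were seen, hosts higher and lower were 5 and 3 with DESeq2 size factors and with its Wald test, where ZFAS1 was at -0.069 with the latter, 3 and 7 with total gene counts and 4 and 6 with factors from abundant genes. Of the 27 hosts 15 changed sign with total gene counts, 14 with factors from abundant genes and 9 with DESeq2 size factors, and those named here were called on either scale. Its host median was -0.067 with total gene counts, where ZFAS1 (-0.16), SNHG12 (-0.15), SNHG16 (-0.14), SNHG1 (-0.057), SNHG17 (-0.052), GAS5 (-0.047) and DANCR (-0.019) reversed, and -0.045 with factors from abundant genes, where ZFAS1 (-0.14), SNHG12 (-0.13), SNHG1 (-0.034), SNHG17 (-0.029) and GAS5 (-0.024) did. The cause was not tested. All other counts of hosts stayed within 1.5 times under every alternative that kept all libraries.

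Without 1 library, hosts lower were 7 to 9 in mESC, 18 to 19 in TET2WT shMBD6, 14 to 16 in TET2KO shControl and 2 to 3 between the TET2KO groups, and hosts higher 1 to 2 in TET2WT shMBD6, 20 to 22 between the lines with shMBD6 (lower 1 to 2) and 10 to 12 between the TET2KO groups. The interaction had 18 to 19 higher and 1 to 2 lower, and the averaged contrast 9 to 12 and 1 to 2, with 2 lower without TET2KO shMBD6 replicate 3. Libraries with the same replicate number did not deviate together (correlations of -0.0020 to 0.025 in 3 mESC pairs and -0.017 to 0.020 in 18 K562 pairs), so the numbers were not taken as pairs. A replicate block left 8 hosts lower and 1 higher in mESC and 19 lower and 2 higher in TET2WT shMBD6 and changed no call of a host. Depth limits SNHG9, SNHG20, SNHG25 and Snhg18, whose log2 changes between 2 groups had SEs of 0.37 to 0.74.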

Other observations

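The mESC library labelled Pspc1 wild type, the only one of its kind, was compared with the siControl libraries as values on the scale of total gene counts, with no test. Gas5 was at 389 CPM there and at 264 to 278 CPM in siControl, Snhg1 at 133 against 91.8 to 97.5 CPM, Snhg5 at 97.5 against 66.9 to 72.9 CPM, Snhg12 at 42.5 against 28.2 to 29.1 CPM and Snhg14 at 53.9 against 32.7 to 34.5 CPM. Snhg11, at 25.9 CPM against 31.9 to 33.3 CPM, and Snhg15, at 26.6 against 27.6 to 30.3 CPM, were below siControl.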
